A study of Rattus norvegicus with 16 samples.

Results

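The genes described here are 9 that act in protein folding and protein degradation in the endoplasmic reticulum (ER): Hspa5, Hsp90b1, Dnajc3, Pdia3, Pdia4, Calr, Canx, Herpud1 and Xbp1. They were chosen by gene symbol, with earlier results of these data known. They are 9 of 10411 named genes on the array, measured by 12 of its 15866 probe sets. Where a gene has several probe sets the brightest on average stands for it, and the others are given too. All values are log2 expression values of Affymetrix rat arrays, where a difference of 1 is a 2-fold change.

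In a study of oxidative stress over time, RNA was taken from rat hippocampus kept as organotypic slice cultures, thin slices of tissue that live on in a dish, separately for the CA1 and CA3 fields. The 8 groups were CA1 and CA3, each at T0, 30 min, 3 h and 12 h, with 2 biological replicates in a group and 16 arrays in all. The sources used here do not give the agent, its dose, what T0 is relative to it, or the strain and age of the rats. Slice cultures hold neurons, glia and vessel cells together, so fewer cells of a type and less RNA per cell cannot be told apart in these values. The labels do not say whether replicates came from separate animals, so the p-values measure the spread between these samples.

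Proteins bound for the cell surface, for secretion or for membranes fold in the ER. Chaperones hold them, disulfide isomerases form their cysteine bonds, and lectins retain glycoproteins until folding is complete. Proteins that fail are drawn back into the cytosol and degraded by the proteasome. When unfolded proteins build up, the sensors IRE1, PERK and ATF6 start the unfolded protein response: ATF6 and the spliced form of XBP1 switch on chaperone and degradation genes, while PERK slows translation and raises ATF4. Neurons make large amounts of receptors, channels and neuropeptides through this route.

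Because ATF6 acts, together with NF-Y, on the ER stress element known from human and mouse chaperone genes, the windows around the annotated gene starts were searched for it. RefSeq windows of build GRCr8, running from 250 bases before to 50 bases after a start, were found for 8 of the 9 genes, with none for Pdia3 in the table used. The element, which is CCAAT, 9 bases of any kind and CCACG on either strand, matched in 22 of all 33469 windows (0.0657%) and in 6 of the 8, namely Hspa5, Hsp90b1, Dnajc3, Calr, Canx and Xbp1. Herpud1 held the related element II, which is ATTGG, 1 base of any kind and CCACG, found in 17 windows (0.0508%). Neither TGACGTGG, a site of XBP1 and ATF6 (0.595% of windows), nor TGATGNAAT, a site of ATF4 with C/EBP proteins (1.09%), matched in the 8 windows. The Herpud1 window does hold gttgcatca, which on the other strand fits TGATGNAA but ends in C in place of T. Such near matches were not searched for. A match is a description of the letters, and no match says only that these letters are not in the window. The matches within a window did not overlap.

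The whole window is shown for the gene that rose at 12 h (Herpud1), the gene that fell (Dnajc3) and the gene with the smallest change at 12 h (Hspa5), read 5′ to 3′ along the gene's strand, with the matched element in capitals.
Herpud1 window, chr19:10614658-10614957, minus strand: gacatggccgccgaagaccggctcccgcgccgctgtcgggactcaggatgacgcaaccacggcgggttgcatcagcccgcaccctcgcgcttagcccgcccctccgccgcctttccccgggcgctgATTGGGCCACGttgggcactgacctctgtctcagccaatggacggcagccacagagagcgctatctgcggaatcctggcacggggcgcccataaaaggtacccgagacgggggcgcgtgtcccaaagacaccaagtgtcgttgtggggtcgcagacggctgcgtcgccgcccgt
Dnajc3 window, chr15:102432417-102432716, plus strand: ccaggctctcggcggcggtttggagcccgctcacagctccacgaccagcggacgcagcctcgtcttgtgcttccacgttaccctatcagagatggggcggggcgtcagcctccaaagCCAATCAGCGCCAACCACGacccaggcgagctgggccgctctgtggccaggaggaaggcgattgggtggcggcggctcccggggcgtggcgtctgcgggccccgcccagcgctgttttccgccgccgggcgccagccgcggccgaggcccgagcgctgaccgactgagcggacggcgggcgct
Hspa5 window, chr3:38452766-38453065, plus strand: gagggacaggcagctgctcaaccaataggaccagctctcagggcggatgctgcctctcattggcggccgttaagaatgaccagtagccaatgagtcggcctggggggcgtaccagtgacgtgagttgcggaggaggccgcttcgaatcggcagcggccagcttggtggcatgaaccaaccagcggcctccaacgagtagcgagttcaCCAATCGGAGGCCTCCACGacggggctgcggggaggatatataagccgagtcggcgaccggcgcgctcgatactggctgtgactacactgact

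For the other matches the element alone is shown, turned to read from CCAAT to CCACG, with its fixed ends in capitals and its place counted from the annotated start (the base just before it is -1). Those of Calr and the second of Hsp90b1 lie on the opposite strand.
Hsp90b1 element, -176 to -158: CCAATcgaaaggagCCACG
Hsp90b1 element, -72 to -54: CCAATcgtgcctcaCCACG
Calr element, -232 to -214: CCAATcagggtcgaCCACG
Canx element, -230 to -212: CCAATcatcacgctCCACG
Xbp1 element, -65 to -47: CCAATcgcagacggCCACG

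The first comparison asked how the genes changed over time against T0. At 12 h, averaged over both fields, Herpud1 rose and Dnajc3 fell, and the other 7 genes did not pass the threshold. No gene passed at 30 min or 3 h. The 9 genes had a median difference of -0.58 at 12 h, against -0.02 for all probe sets, and 7 of them were lower. The threshold was an adjusted p under 0.05 over all probe sets in a limma fit of all 16 arrays, which 2.07% of the probe sets passed at 12 h (0.838% higher, 1.23% lower), 0.107% at 30 min and 0.183% at 3 h. At an unadjusted p under 0.05 the 9 genes gave 5 at 12 h, 1 at 30 min and 0 at 3 h, against 18.2%, 7.46% and 9.09% of all probe sets. Because the genes were chosen with earlier results of these data known, these comparisons describe the 9 genes and do not test them as a set.

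Both calls depended on how the arrays were counted. The CA1 array and the CA3 array that share a time and a replicate number varied together, and with each such pair as 1 unit no gene passed at 12 h. In that limma fit 0 of 15866 probe sets passed, and 1664 (10.5%) had an unadjusted p under 0.05; the shares were 3.96% at 30 min and 4.99% at 3 h. Adjusted p was then 0.276 for Herpud1 and 0.285 for Dnajc3. The differences are the same in that fit, since pair means average the same arrays. Their standard errors were 0.3 for Herpud1 and 0.31 for Dnajc3, against 0.26 for each in the fit of all arrays. The SDs, standard errors and intervals below count paired arrays as separate, unless pairing is named. Leaving out any of 6 single arrays of T0 or 12 h also ended both calls: either CA1 array or CA3 replicate 2 at T0, and CA1 replicate 2 or either CA3 array at 12 h.

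**Figure D1:**
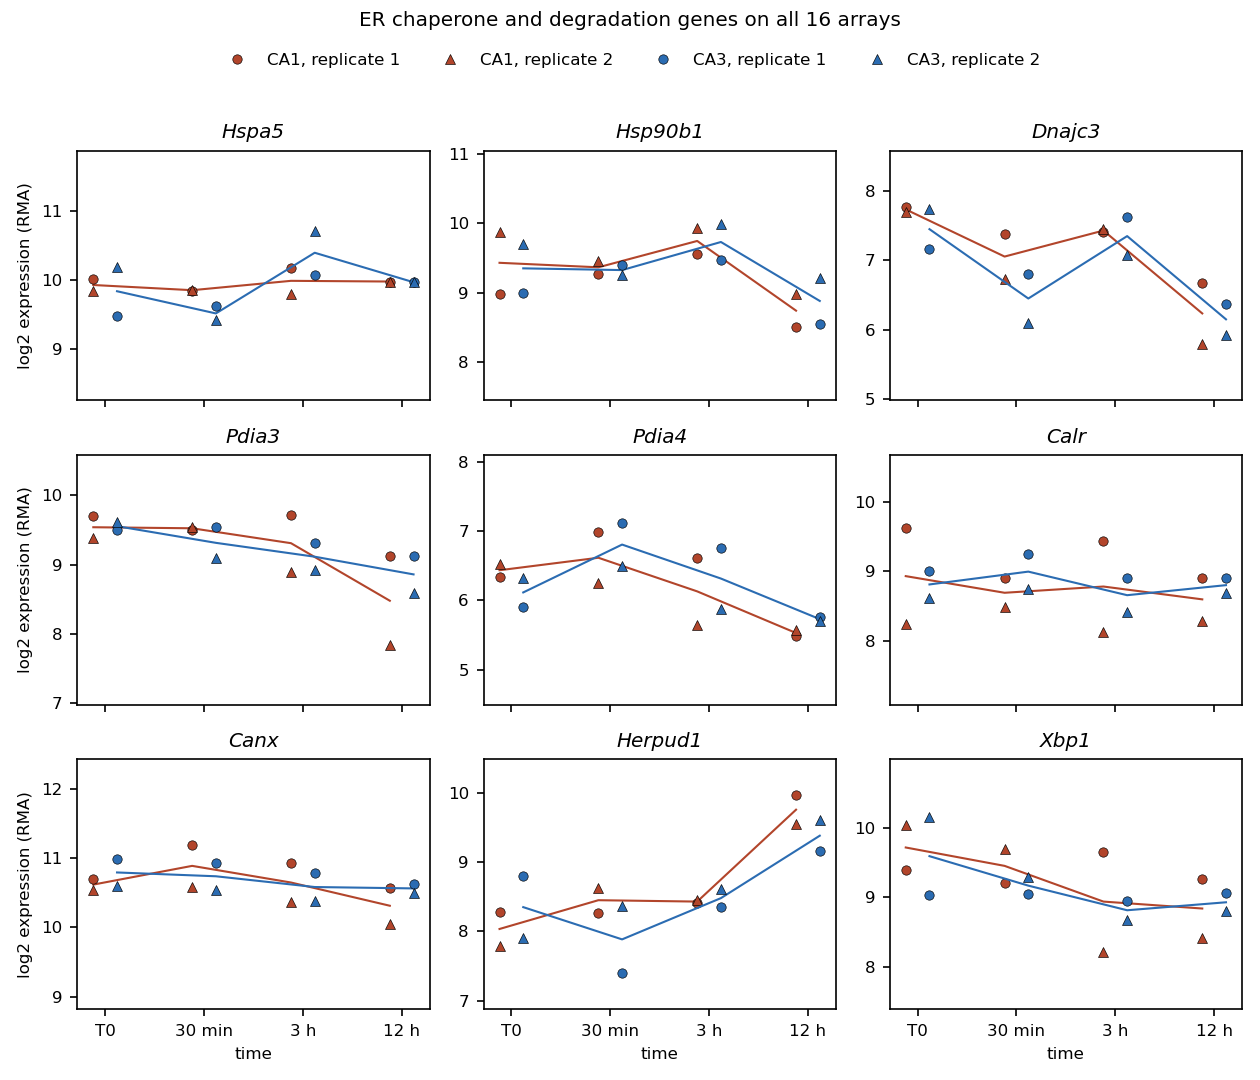
Log2 expression (vertical axis) of the 9 genes at T0, 30 min, 3 h and 12 h (horizontal axis) on each of the 16 arrays. CA1 is red and CA3 blue, circles are replicate 1 and triangles replicate 2, lines join the means of 2 arrays, and each panel spans the same log2 range. The 4 Herpud1 points at 12 h (9.16 to 9.96) lie above its 4 points at T0 (7.79 to 8.8), and the 4 Dnajc3 points at 12 h (5.79 to 6.68) below its points at T0 (7.16 to 7.77).

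Herpud1 encodes a membrane protein of the ER that helps assemble the degradation complex around the HRD1 ubiquitin ligase. In CA1 it read 8.28 and 7.79 at T0 and 8.27 and 8.63 at 30 min, then 8.41 and 8.45 at 3 h and 9.96 and 9.55 at 12 h. In CA3 it read 8.8 and 7.9 at T0 and 7.4 and 8.37 at 30 min, then 8.35 and 8.61 at 3 h and 9.16 and 9.6 at 12 h. All 4 arrays at 12 h were thus above all 12 earlier arrays, and the arrays of T0, 30 min and 3 h overlapped one another. Averaged over both fields it stood at 9.57 ± 0.33 at 12 h and 8.19 ± 0.46 at T0 (SD, n = 4 arrays each). The difference was 1.37 ± 0.26 (moderated standard error, as after ± below unless SD is named), a 2.59-fold rise with adjusted p = 0.0321 in limma and a 95% interval from 0.79 to 1.96. The earlier differences were -0.03 ± 0.26 at 30 min and 0.26 ± 0.26 at 3 h. The step from 3 h to 12 h was 1.11 ± 0.26 (limma adjusted p = 0.167, where 0.0189% of probe sets passed).

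Dnajc3, also called P58IPK, is a co-chaperone of Hspa5 inside the ER and is known as an inhibitor of PERK. In CA1 its values were 7.77 and 7.7 at T0 and 7.38 and 6.73 at 30 min, then 7.41 and 7.45 at 3 h and 6.68 and 5.79 at 12 h. In CA3 they were 7.16 and 7.74 at T0 and 6.81 and 6.09 at 30 min, then 7.62 and 7.08 at 3 h and 6.37 and 5.93 at 12 h. The course was not even: the mean was low at 30 min, nearer to T0 at 3 h and lowest at 12 h, where the arrays did not overlap T0 in either field. It averaged 6.19 ± 0.41 at 12 h and 7.59 ± 0.29 at T0 (SD, n = 4 arrays each). It fell by 1.4 ± 0.26 on the log2 scale at 12 h, to 0.379 of its T0 level (limma adjusted p = 0.03, interval from -1.98 to -0.82). At 30 min the difference was -0.84 ± 0.26 (unadjusted p = 0.00882, adjusted p = 0.395 in limma), and at 3 h it was -0.2 ± 0.26. Over 26 alternative settings the 30 min difference ran from -1.02 to -0.45.

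Signals that do not come from the rat RNA also differed between times. The mean log2 signal of Bacillus transcripts, which the maker's procedure adds before labelling, was 6.58 at T0 and 5.45 at 30 min, then 6.07 at 3 h and 4.92 at 12 h. The Dnajc3 means had the same order over time (7.59, 6.75, 7.39 and 6.19). With this added-control signal as a covariate, the 12 h difference was 1.01 ± 0.34 for Herpud1 and -0.83 ± 0.27 for Dnajc3 (limma adjusted p = 0.426 and 0.393), the second over 1.5 times smaller in size. At 30 min and 12 h replicate 2 had the lowest added-control signal, from 4.256 to 4.51. Without these 4 arrays Herpud1 stood at 1.37 ± 0.29 and Dnajc3 at -1.07 ± 0.24 (limma adjusted p = 0.238 and 0.254, with 12 arrays left). The part of labelling in these differences was not tested.

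**Figure D2:**
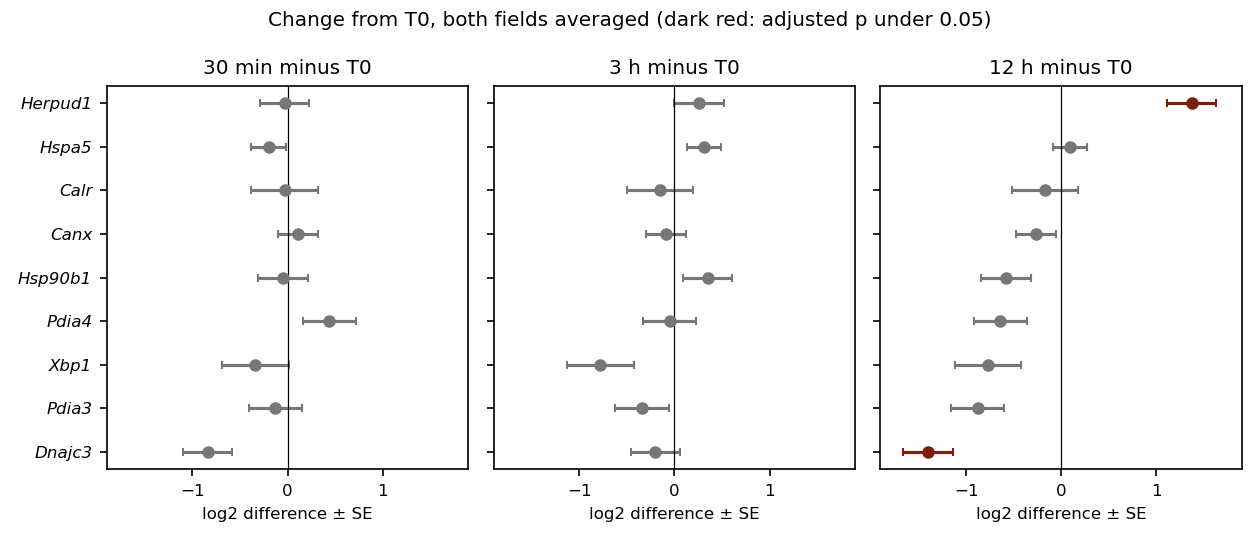
Differences from T0 averaged over both fields (horizontal axis, log2, bars are moderated standard errors) for the 9 genes (vertical axis, ordered by their 12 h value) at 30 min, 3 h and 12 h. Dark red marks adjusted p under 0.05 in the limma fit of all arrays: Herpud1 at 1.37 and Dnajc3 at -1.4, both at 12 h.

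Among the chaperones, Hspa5 showed no difference past the threshold at any time. Hspa5, known as BiP or GRP78, is the main Hsp70 chaperone of the ER and the usual marker of the unfolded protein response. Its CA1 values were 10.01 and 9.85 at T0 and 9.85 and 9.86 at 30 min, then 10.18 and 9.8 at 3 h and 9.98 on both arrays at 12 h. In CA3 they were 9.49 and 10.19 at T0 and 9.62 and 9.42 at 30 min, then 10.08 and 10.71 at 3 h and 9.97 on both arrays at 12 h. The 12 h arrays fell inside the range of T0. The 12 h difference of 0.09 ± 0.18 had an interval from -0.32 to 0.5 (limma adjusted p = 0.902). At 3 h the difference was 0.31 ± 0.18, with 0.06 in CA1 and 0.55 ± 0.26 in CA3 (limma adjusted p = 0.645 averaged and 0.975 in CA3). The averaged value was 0.13 without CA3 T0 replicate 1 and 0.15 without CA3 3 h replicate 2.

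Hsp90b1, or GRP94, is the Hsp90 chaperone of the ER, which folds a narrow set of clients such as integrins and Toll-like receptors. In CA1 it read 8.98 and 9.88 at T0 and 9.27 and 9.46 at 30 min, then 9.56 and 9.93 at 3 h and 8.5 and 8.98 at 12 h. The CA3 arrays gave 9 and 9.7 at T0 and 9.4 and 9.25 at 30 min, then 9.47 and 9.99 at 3 h and 8.55 and 9.21 at 12 h. The 3 h arrays were the higher ones and the 12 h arrays the lower ones, but 12 h and T0 overlapped. The difference from T0 was 0.35 ± 0.26 at 3 h and -0.58 ± 0.26 at 12 h (limma adjusted p = 0.703 and 0.261), and the step from 3 h to 12 h was -0.93 ± 0.26 (limma adjusted p = 0.221). Single T0 arrays moved the values by over 1.5 times, with 0.12 at 3 h without CA1 T0 replicate 1 and -0.36 at 12 h without CA1 T0 replicate 2.

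Pdia3 and Pdia4 are disulfide isomerases, and Pdia3, or ERp57, works on glycoproteins held by calreticulin and calnexin. Pdia3 read 9.7 and 9.38 in CA1 and 9.5 and 9.61 in CA3 at T0. At 30 min it read 9.5 and 9.55 in CA1 and 9.54 and 9.09 in CA3, and at 3 h 9.72 and 8.9 in CA1 and 9.31 and 8.92 in CA3. At 12 h it read 9.12 and 7.84 in CA1 and 9.13 and 8.59 in CA3, all below the T0 arrays. The mean was 8.67 ± 0.61 at 12 h and 9.55 ± 0.14 at T0 (SD, n = 4 arrays each), a difference of -0.88 ± 0.28 (limma adjusted p = 0.134). It was -0.42 ± 0.27 without those 4 arrays of low added-control signal and -0.56 without CA1 12 h replicate 2 alone. It passed with the replicate number as a block (adjusted p = 0.0317 in limma) and with the GAPDH 3′ minus 5′ signal, which is larger in shortened or degraded RNA, as a covariate (-0.98 ± 0.18, adjusted p = 0.0104 in limma). The number of all probe sets that passed at 12 h also varied between settings, from 0 to 2014 of 15866, against 328 in the main fit. A second probe set of Pdia3, with a mean of 6.585, gave -0.47 ± 0.33 and also did not overlap T0.

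Pdia4, or ERp72, read 6.34 and 6.53 in CA1 and 5.9 and 6.33 in CA3 at T0, then 6.98 and 6.25 in CA1 and 7.11 and 6.5 in CA3 at 30 min. The 3 h arrays gave 6.61 and 5.65 in CA1 and 6.76 and 5.87 in CA3. At 12 h the values were close together, 5.48 and 5.58 in CA1 and 5.76 and 5.7 in CA3, and all lay below T0. The differences from T0 were 0.44 ± 0.28 at 30 min, -0.05 ± 0.28 at 3 h and -0.64 ± 0.28 at 12 h (limma adjusted p = 0.86, 0.957 and 0.246). In all, 4 of the 9 genes did not overlap between 12 h and T0, that is 44.4%, with Herpud1 higher and Dnajc3, Pdia3 and Pdia4 lower. Of all probe sets 15.6% did not overlap, 7.55% higher and 8% lower. This too is a description, since the genes were chosen with earlier results of these data known. At 30 min and at 3 h all 9 genes overlapped T0, where 5.55% and 6.69% of all probe sets did not.

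Calr and Canx, the lectins calreticulin and calnexin, bind glycoproteins that carry a trimmed sugar chain and keep them in the folding cycle. Calr stood at 8.87 ± 0.59 at T0 and 8.84 ± 0.32 at 30 min, then 8.72 ± 0.57 at 3 h and 8.7 ± 0.29 at 12 h (SD, n = 4 arrays each). Its arrays ran from 8.29 to 8.91 at 12 h, inside the range of T0, 8.24 to 9.62. The 12 h difference was -0.17 ± 0.35 with an interval from -0.94 to 0.61 (limma adjusted p = 0.902). Its arrays differed by replicate number, with replicate 2 lower than replicate 1 in 8 of 8 groups and a mean difference of -0.66.

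Canx behaved likewise at its brightest probe set, with 10.7 ± 0.2 at T0 and 10.81 ± 0.31 at 30 min, then 10.61 ± 0.28 at 3 h and 10.43 ± 0.26 at 12 h (SD, n = 4 arrays each). The 12 h difference was -0.27 ± 0.21 (limma adjusted p = 0.592), and replicate 2 was lower in 8 of 8 groups by a mean of -0.39. Of all probe sets 5.24% were lower in replicate 2 in all 8 groups. Replicate 2 also had the larger GAPDH 3′ minus 5′ signal, by 1.3 on average and in 8 of 8 groups. Its part in the Calr and Canx values was not tested.

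The 3 probe sets of Canx did not run together. The second, with a mean of 8.267, correlated with the first at 0.82 over the 16 arrays and gave -1.06 ± 0.52 at 12 h (limma adjusted p = 0.325). The third, with a mean of 7.645, correlated with the first at -0.35. It read 8.02 and 8.61 in CA1 and 8.22 and 8.28 in CA3 at 3 h, against 7.04 and 7.9 in CA1 and 6.91 and 7.42 in CA3 at T0, with no overlap. That difference was 0.97 ± 0.23 (unadjusted p = 0.00149, adjusted p = 0.168 in limma), and it was 0.36 ± 0.23 at 12 h. A statement about Canx at 3 h thus rests on the probe set chosen.

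Xbp1 encodes the transcription factor whose mRNA IRE1 splices, and the array value does not part the spliced from the unspliced form. In CA1 it read 9.39 and 10.05 at T0 and 9.21 and 9.7 at 30 min, then 9.66 and 8.22 at 3 h and 9.26 and 8.42 at 12 h. In CA3 it read 9.03 and 10.16 at T0 and 9.05 and 9.29 at 30 min, then 8.95 and 8.68 at 3 h and 9.06 and 8.8 at 12 h. Replicate 2 was the higher array in both fields at T0 and 30 min and the lower one in both at 3 h and 12 h. The differences from T0 were -0.34 ± 0.35, -0.78 ± 0.35 and -0.77 ± 0.35 at 30 min, 3 h and 12 h, and the arrays overlapped T0 at each time (limma adjusted p = 0.973, 0.549 and 0.281). The 3 h value was -0.42 without CA1 3 h replicate 2, and the 12 h value -0.49 without CA3 T0 replicate 2.

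The second comparison took each field alone against its own T0. None of the 9 genes passed in CA1 or in CA3 at any of the 3 later times. Of all probe sets 0.0126%, 0.0063% and 0.208% passed in CA1 at 30 min, 3 h and 12 h, and 0%, 0% and 0.0063% in CA3. In CA1 at 12 h the limma differences with an unadjusted p under 0.05 were 1.72 ± 0.37 for Herpud1 (adjusted p = 0.121), -1.5 ± 0.37 for Dnajc3 (0.17), -1.06 ± 0.4 for Pdia3 (0.348) and -0.9 ± 0.39 for Pdia4 (0.419). In CA3 they were 1.03 ± 0.37 for Herpud1 (adjusted p = 0.593) and -1.3 ± 0.37 for Dnajc3 (0.412), and Dnajc3 also reached it at 30 min in CA3 (-0.99 ± 0.37, adjusted p = 1 in limma, where 3.04% of probe sets did). Single arrays moved some of these values by over 1.5 times: Pdia3 in CA1 was -0.42 without CA1 12 h replicate 2 and -1.7 without replicate 1, and Herpud1 in CA3 was 0.58 without CA3 T0 replicate 2. The shares of all probe sets with an unadjusted p under 0.05 were 11.3% in CA1 and 6.93% in CA3 at 12 h. At 3 h no gene of the 9 reached it in either field, where 4.56% of all probe sets did in CA1 and 3.93% in CA3, nor at 30 min in CA1 (4.96%). With the GAPDH 3′ minus 5′ signal as a covariate, Herpud1, Dnajc3 and Pdia3 passed in CA1 at 12 h, where 514 probe sets passed in CA1 at some time.

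The order of the 8 groups shows the same values another way. For Herpud1 the CA1 12 h mean (9.75) came first and the CA3 12 h mean (9.38) next, and these groups overlapped. A gap followed to CA3 at 3 h (8.48), and from there down to CA3 at 30 min (7.88) each group overlapped its neighbour. For Dnajc3 the order ran from CA1 at T0 (7.74) to CA3 at 12 h (6.15), and each group overlapped the next. For Pdia4 both 12 h groups (5.73 in CA3, 5.53 in CA1) lay last, with no overlap with the group before them, CA3 at T0. The array of CA1 at 3 h, replicate 2 (5.65), did lie among the 12 h arrays (5.48 to 5.76).

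The third comparison asked whether CA1 and CA3 differed. Averaged over the 4 times, none of the 9 genes differed past the threshold in either fit (limma). In the fit of all arrays 0 of 15866 probe sets passed, with 510 (3.21%) at an unadjusted p under 0.05, and with arrays paired 33 (0.208%) passed, with 10.6% at an unadjusted p under 0.05. The CA1 minus CA3 differences ran from -0.07 to 0.26. The largest was that of Dnajc3, which averaged 7.11 over the CA1 arrays and 6.85 over the CA3 arrays, a difference of 0.26 ± 0.18 in the fit of all arrays and a standard error of 0.12 with arrays paired (limma adjusted p = 0.472). CA1 was the higher array in 5 of its 8 pairs.

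Intervals for the other genes show what size of field difference these arrays leave within the fit of all arrays. For Hspa5 the difference was 0.01 with an interval from -0.28 to 0.3, for Herpud1 0.14 from -0.27 to 0.55, and for Xbp1 0.11 from -0.44 to 0.66. No gene of the 9 kept the same sign in all 8 pairs, which 2.28% of all probe sets did. Pdia4 was higher in CA1 in both T0 pairs and lower in CA1 in all 6 later pairs, by -0.13 to -0.28. Herpud1 was higher in CA1 in 4 of 8 pairs.

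**Figure D3:**
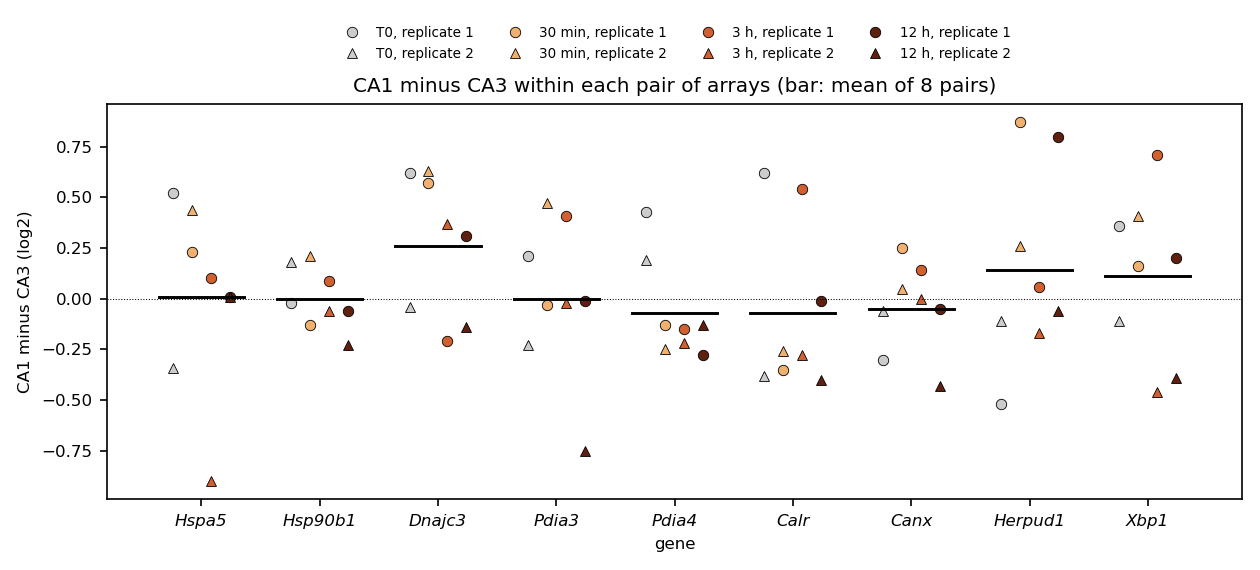
CA1 minus CA3 (vertical axis, log2) within each of the 8 pairs of arrays that share a time and a replicate number, for the 9 genes (horizontal axis). Circles are replicate 1, triangles replicate 2, darker symbols later times, and the bar is the mean of the 8 pairs, which runs from -0.07 for Calr and Pdia4 to 0.26 for Dnajc3.

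Whether the change from T0 differed between the fields was tested as an interaction. None of the 9 genes passed at 30 min, 3 h or 12 h, and no probe set on the array did (limma, 0 of 15866 at each time). At an unadjusted p under 0.05 there were 133 (0.838%), 55 (0.347%) and 71 (0.447%). With arrays paired none passed either, and 595 (3.75%), 281 (1.77%) and 371 (2.34%) had an unadjusted p under 0.05. One of the 9 genes was among these, Herpud1 at 30 min, whose change was larger in CA1 by 0.88 ± 0.52 in the fit of all arrays (limma unadjusted p = 0.124) and had a standard error of 0.36 with arrays paired (limma unadjusted p = 0.0368, adjusted p = 1). At 12 h its change was larger in CA1 by 0.68 ± 0.52, with an interval from -0.48 to 1.85. For Dnajc3 it was -0.21 ± 0.52, from -1.36 to 0.95.

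Around the 9 genes, 145 of 165 other listed genes of ER folding, degradation and stress signalling were measured. At 12 h, averaged over both fields, 4 of these rose and 2 fell, against 0 and 0 at 30 min and 1 and 1 at 3 h. Of all probe sets 0.838% passed as higher and 1.23% as lower at 12 h, and 0.107% passed at 30 min and 0.183% at 3 h. Their median difference at 12 h was -0.03, near the -0.02 of all probe sets. With arrays paired none of the 6 passed, and the smallest adjusted p among them was 0.0541, for Chac1.

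Of 21 ER folding helpers none passed at 12 h, 15 were lower and the median was -0.35. The leading values were -1.36 ± 0.31 for Sdf2l1, a partner of ER J-domain proteins, and -1.25 ± 0.31 for Creld2, an ER stress-inducible secreted protein (limma adjusted p = 0.0566 and 0.0695). Of 19 disulfide and thiol enzymes none passed, with a median of -0.12. The largest sizes there were -1.43 ± 0.75 for Prdx4, the peroxiredoxin of the ER, and 1.25 ± 0.42 for Tmx4, a membrane-bound thioredoxin (limma adjusted p = 0.355 and 0.142).

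Of 36 genes of ER-associated degradation 1 rose, the ubiquitin ligase Rnf185 (0.75 ± 0.12, limma adjusted p = 0.0178), and the median was 0.06. In the list of N-glycan and lectin quality control 1 of 22 fell, Kdelr3, a receptor that returns escaped ER proteins (-1.41 ± 0.3, limma adjusted p = 0.0438), and the median was -0.28. Of 21 translocon and signal peptide genes none passed and the median was -0.18, with Ssr4 at -0.75 ± 0.34 and Sec61a2 at 0.58 ± 0.31.

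The 26 sensors and transcription factors held the other 4 calls, with a median of 0.2. Atf4, the transcription factor raised by PERK, rose by 1.19 ± 0.21, and the genes Trib3 and Chac1, known as its targets, rose by 1.38 ± 0.23 and 3.15 ± 0.2 (limma adjusted p = 0.0217, 0.0178 and 0.000144). Mbtps2, the protease that frees ATF6 and SREBP from the membrane, fell by 0.79 ± 0.13 at 12 h and by 0.78 ± 0.13 at 3 h (limma adjusted p = 0.0178 and 0.0497). Chac1 rose by 1.49 ± 0.2 at 3 h (limma adjusted p = 0.012).

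**Figure D4:**
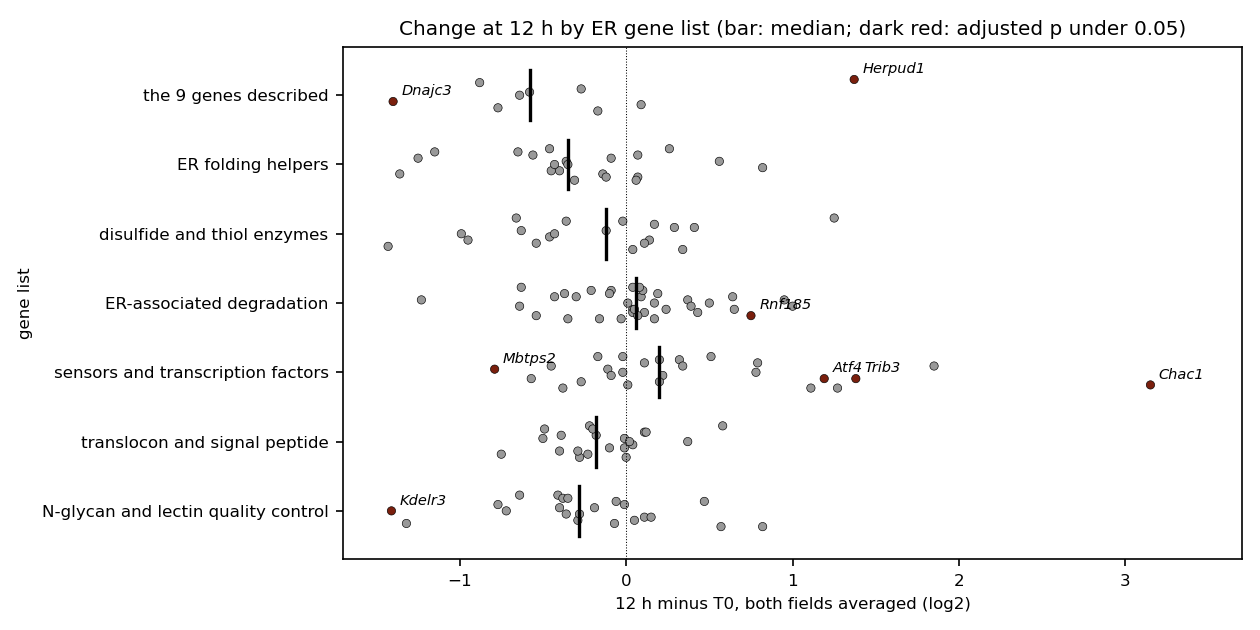
Difference between 12 h and T0 averaged over both fields (horizontal axis, log2) for the 9 genes and for the measured genes of 6 ER gene lists (vertical axis). Each point is a gene, the bar is the list's median and dark red points passed adjusted p under 0.05; medians run from -0.58 for the 9 genes to 0.2 for sensors and transcription factors.

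The genes that share the ER stress element did not share a direction. Of the 21 genes with the element in their window 17 were measured, and at 12 h 6 were higher, 11 lower, 0 rose and 2 fell (Dnajc3 and Birc5), with a median of -0.17. In that fit of all arrays 0.838% of all probe sets passed as higher and 1.23% as lower, and with arrays paired none passed. Besides the 6 genes described above, 11 others were measured, of which 5 were higher and 6 lower. Named here by their values, these included Zfand2a at 0.98 ± 0.3, Hnrnpa3 at -1.48 ± 0.42 and Creld2 at -1.25 ± 0.31 (limma adjusted p = 0.113, 0.101 and 0.0695), and Birc5, an inhibitor of apoptosis made in dividing cells, at -0.64 ± 0.12 (limma adjusted p = 0.028). The signal of Birc5 was low, with a mean log2 value of 4.79.

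**Figure D5:**
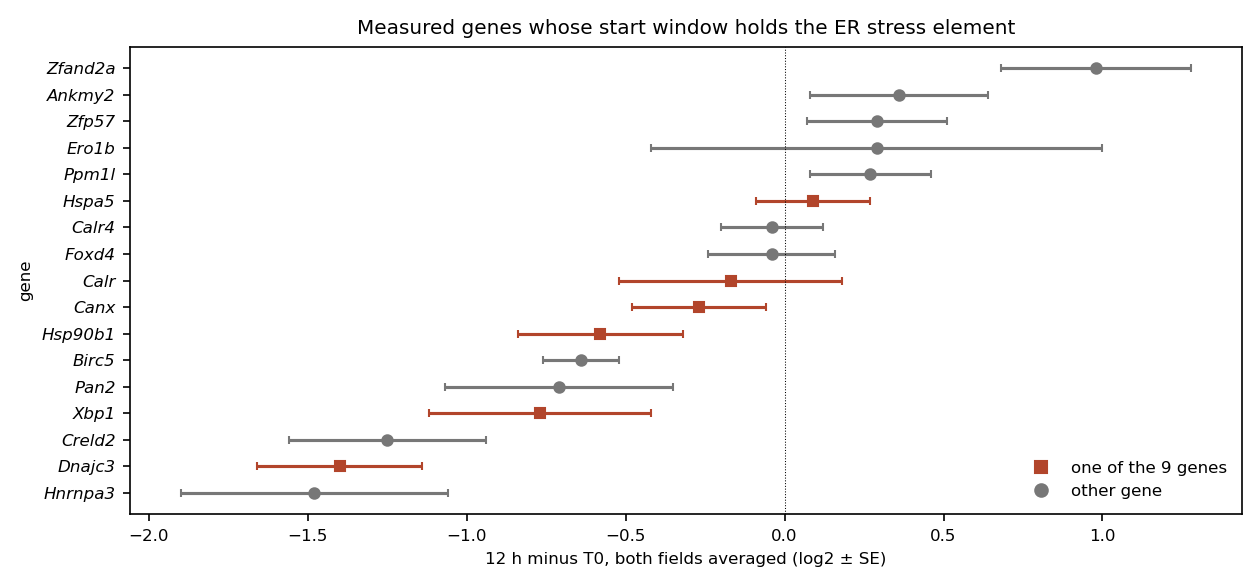
Difference between 12 h and T0 averaged over both fields (horizontal axis, log2, bars are moderated standard errors) for the 17 measured genes whose window around the start holds the ER stress element (vertical axis). Squares are 6 of the 9 genes described and circles the 11 others; values run from -1.48 for Hnrnpa3 to 0.98 for Zfand2a.

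Genes were also ranked by how alike their values were to Herpud1 over the 16 arrays, among 6006 other genes with a mean of at least 6. The 5 most alike were Nck2 (Pearson r = 0.91), Cipc (0.89), Hspa13 (0.89), Phospho2 (0.88) and LOC100912041 (0.88). For Hspa5 the highest values were lower, from 0.75 for Rbbp6 to 0.68 for Slc38a2. The arrays share groups and replicate numbers, and each list holds the highest of 6006 values, so these are descriptions.

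Markers of cell types moved over the same times, on the same arrays. At 12 h 6 of 7 markers of dividing cells fell, and their mean log2 level ran from 5.98 to 6.57 over the 12 h arrays and from 7.89 to 8.56 over the T0 arrays. Of 10 microglia markers 3 fell (5.89 to 7.23 at 12 h, 7.72 to 8.2 at T0), and of 7 excitatory neuron markers 1 rose (8.01 to 8.53 at 12 h, 5.6 to 7.72 at T0). By sign alone 9 of the 10 microglia markers were lower and all 7 neuron markers higher, with median differences of -1.82 and 1.76. Of all probe sets 2.07% passed at 12 h in that fit of all arrays, and none passed with arrays paired. Of 8 fibroblast, meningeal and choroid plexus markers 1 fell, Fn1 (list means 5.56 to 6 at 12 h, 5.8 to 7.18 at T0). Of the 4 measured CA1 pyramidal markers 1 rose, Pou3f1 (list means 5.11 to 7.31 at 12 h, 4.68 to 4.96 at T0). Pou3f1 itself had a low mean of 3.98, and its 12 h difference was 2.31 ± 0.37 in CA1 and 0.11 ± 0.37 in CA3. No astrocyte (8), oligodendrocyte (6) or endothelial and mural marker (7) passed, and 6 of the endothelial and mural markers had means under 5. Averaged over times, all 4 CA1 pyramidal markers were higher in CA1, and of the 2 measured CA3 markers 1 was lower in CA1, none past the threshold. At T0 itself Mpped1 averaged 4.42 in CA1 and 5.47 in CA3, and Pou3f1 3.48 in CA1 and 3.58 in CA3, so neither was higher in CA1 there. Wfs1 (6.11 in CA1, 5.99 in CA3) and Fibcd1 (4.75 in CA1, 4.64 in CA3) were slightly higher in CA1 at T0. Over all times, all 7 excitatory neuron markers and all 6 oligodendrocyte markers were lower on average in CA1 than in CA3. With arrays paired the myelin genes Mag (-1.14), Mbp (-1.12) and Cldn11 (-0.95) passed (limma adjusted p = 0.0113, 0.0433 and 0.0464). The part of cell make-up in the differences of the 9 genes was not tested.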

How the data were processed

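The authors deposited log2 expression values for each probe set on each array, which they made with RMA per the submitters' processing notes; the sources used here do not give the version or settings. RMA gives all arrays the same distribution, so a change shows only against the array's other genes. Per the labels' protocols, total RNA was labelled with biotin over 2 cycles. The number of arrays limits the precision.

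After 57 control probe sets were set aside, 15866 were tested. The platform annotation names 1 gene for 12783, several for 312 and none for 2771; 12748 matched the rat RefSeq table (assembly GRCr8) by Entrez identifier. limma 3.58.1 under R 4.3.3 fitted 8 group means, leaving 8 residual degrees of freedom and Benjamini-Hochberg adjustment over all probe sets within a contrast. The fits were also run on simulated data in which each array was drawn independently. That run held no link between CA1 and CA3 arrays, so it does not test how such a link affects the calls.

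Each array's deviation from its group mean correlated between the fields, at equal time and number, at 0.57 to 0.67 (4 of 4 over 0.1), so numbers pair the fields here; between times they ran from -0.24 to 0.66. Of those 12, 3 were not over 0.1, each with CA3 T0, so the rule for pairing times was not met. Some values did follow the number across times: 9.42% of probe sets had replicate 2 on one side in all 8 groups. The GAPDH 3′ minus 5′ signal was larger in replicate 2 in 8 of 8 groups. The main fit leaves the number out, and the number as a block is given as an alternative. The paired fit used pair differences or pair means, with 4 residual degrees of freedom.

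The 9 genes, the lists and the settings were chosen with earlier results of these data known, and the step from 3 h to 12 h, the genes sharing the element and the replicate-number comparison were added after their values were seen. All 9 genes are described. Other listed genes are named if they passed, or as the 2 with the largest 12 h size in a list with none. Protein sequences were not used here.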

Additional observations from a re-analysis of the deposited data

How the results depend on the processing

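In the fit of all arrays 2 of the 9 genes passed at 12 h averaged over both fields, and this count fell to 0 with a replicate block made of CA1 and CA3 pairs, to 0 without replicate 2 at 30 min and at 12 h, to 0 with the added control signal as a covariate and to 1 (Dnajc3) without replicate 2 at 3 h. Leaving out single arrays gave 0 to 2: it was 0 without either CA1 T0 array, CA3 T0 replicate 2, CA1 12 h replicate 2 or either CA3 12 h array, and 1 (Dnajc3) without CA1 12 h replicate 1. Over the 26 alternatives Herpud1 at 12 h ran from 1.01 to 1.6 (adjusted p = 0.0125 to 0.426, limma) and Dnajc3 from -1.62 to -0.83 (adjusted p = 0.00586 to 0.393), each with its sign kept in 26 of 26. With the replicate number as a block over all arrays, adjusted p was 0.0178 for Herpud1, 0.00887 for Dnajc3 and 0.0317 for Pdia3 at 12 h, a count of 3, and the GAPDH 3′ minus 5′ covariate also gave 3, with Pdia3 the gene added. In CA1 the count of 0 became 3 with the GAPDH 3′ minus 5′ signal as a covariate. The other counts, all 0, stayed 0 under each alternative run, and pairing changed no other call. The pairing fit gives no value for a field alone. The number of probe sets called at 12 h over both fields, 328, ran from 0 to 2014. That number is not given here for the replicate-number block and the GAPDH covariate, so the 3 genes that passed there cannot be set against the array's share. Among 1386 values of single genes, 97 had the other sign, none of them past the threshold, for results of at most 0.33 in size. The causes were not tested. With 2 arrays a group a real difference can miss the threshold, and the intervals given are not limits of detection. The 12 h interval of Pdia3, averaged over both fields, ran from -1.51 to -0.25, yet Pdia3 was not called in the fit of all arrays.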

Other observations

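The 9 genes did not vary as 1 block over the 16 arrays. Of their 36 pairs 22 correlated above 0, with a median Pearson r of 0.22 and a range from -0.81 to 0.77. Pdia3 and Canx had the highest value (0.77), followed by Dnajc3 and Pdia3 (0.7). Herpud1 and Pdia4 had the lowest (-0.81), and Herpud1 was also below 0 with Hsp90b1 and Dnajc3 (-0.63 each) and Pdia3 (-0.62). Hspa5 lay between -0.28 and 0.3 with the other genes. The arrays share times and replicate numbers, so these values are descriptions.

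By replicate number Hsp90b1 ran against Calr and the brightest Canx probe set. For Hsp90b1 replicate 2 was higher than replicate 1 in 7 of 8 groups, by 0.46 on average. For Calr and that Canx probe set replicate 2 was lower in 8 of 8. For the third Canx probe set it was lower in 2 of 8, with a mean difference of 0.2. Of all probe sets 5.24% were lower in replicate 2 in all 8 groups, and the share at 7 of 8 was not counted.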
